A study of Mus musculus with 138 samples.

Results

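The sagittal suture is the midline joint between the paired parietal bones of the skull vault. Bulk RNA-seq was compared here between its 2 laser-captured regions at E16.5 (E stands for embryonic day): the suture mesenchyme (SM), which lies between the bones, and the osteogenic front (OF) of the parietal bone, the bone edge that borders the SM. Samples were chosen by their labels, as all libraries labelled sagittal, E16.5 and either SM or parietal OF, which gave 10 of the 138 samples of the series, 5 SM and 5 OF. The embryos of both regions were of the C57BL/6J strain, and the labels name no transgene, mutation or treatment. Libraries of the same replicate number carried the same specimen label in both regions, and the 5 specimens came under 2 litter labels (replicates 1 and 2, and replicates 3 to 5). How the outline of a captured area was set is not given in the sources used here, and each library holds the RNA of all cells inside it.

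The parietal bone is a membrane bone and grows at its rim. Cells there divide, and their progeny turn into osteoblasts, which lay down a matrix rich in collagen I before mineral is deposited in it. The SM is kept free of bone and provides progenitors, and its premature ossification is known as craniosynostosis. Hedgehog, FGF, BMP, TGF-beta and WNT signals are all known to act in this balance.

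Counts assigned to genes ranged from 13144810 to 16239179 per SM library and from 15272493 to 17338803 per OF library, and each library held counts for between 25541 and 26275 genes. The OF libraries were the deeper ones by a difference of 0.1561 in the mean log2 total (exact permutation test, two-sided, p = 0.04762, 5 against 5; the smallest p possible is 0.007937). Leaving out replicate 1, 2, 4 or 5 raised that p to between 0.08571 and 0.1714. With 4 against 4 the smallest p possible is 0.02857, and the same test without replicate 3 reached it. In replicate 3 alone the SM library was the deeper one (16239179 against 15826796 counts). The pairing by specimen was not used. The mitochondrial share of counts was 14.98 ± 1.209% (SD, n = 5) in the SM and 15.6 ± 1.25% in the OF. It was not shown to differ (exact permutation test, two-sided, p = 0.4365), but that test did not use the pairing by specimen. In replicates 1 to 5 the share was 16.83, 14.14, 14.96, 13.7 and 15.26% in the SM. It was 17.2, 14.51, 15.43, 14.34 and 16.54% in the OF, higher than in the SM in each pair. A paired test was not run. The regions separated on the first principal component, which held 72.1% of the variance of the 1000 most variable genes. Spearman correlations across genes were between 0.976 and 0.984 within a region and between 0.924 and 0.948 across regions (genes are not independent replicates).

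**Figure D1:**
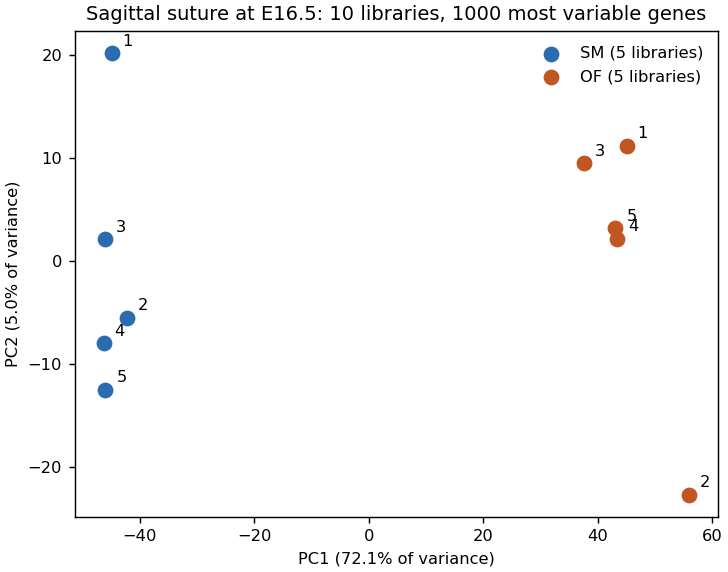
The 10 libraries on the first 2 principal components of the log2 of library-scaled counts, over the 1000 most variable genes; each point is a library and the digit is its replicate number. The 5 SM and the 5 OF libraries stand on opposite sides of the first component, which holds 72.1% of the variance.

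The comparison asked which genes distinguish the edge of the growing parietal bone from the adjacent mesenchyme. Of 19768 genes tested, 2205 were higher in the OF (11.2% of genes tested) and 1301 were lower (6.58%), at an adjusted p under 0.05 by the quasi-likelihood test of edgeR, adjusted by the Benjamini-Hochberg method. That test and that adjustment stand behind every adjusted p in the following account. The spread was estimated over all 100 libraries of the 20 groups with 5 replicates. A fit to the 10 sagittal libraries alone called more than 1.5 times as many genes (4551 higher and 4417 lower). Of the called genes, 928 were higher and 794 lower by at least 2-fold, and the direction was the same in 5 of 5 replicate pairs for 2183 and 1296 genes. Within litters, 656 genes were higher and 366 lower with replicates 1 and 2 alone, and 1129 were higher and 604 lower with replicates 3 to 5 alone. Of the 3506 called genes, 937 were called in each litter alone and 3504 had the same direction in both litters. The genes were called from these same libraries, so that agreement in direction over pairs or litters is not independent evidence. The median log2 fold change (OF over SM) of all genes tested was -0.02, and the shares given below stand beside these backgrounds. The gene lists were chosen with earlier results of these data known, so that a share above its background is not a test. Over all genes tested, every OF library lay above every SM library for 3667 genes and below for 2889. Lack of overlap between regions was thus more common than a call. Levels are given as counts per 1000000 counts (CPM) after TMM scaling, as mean ± SD over 5 libraries, and log2 fold changes as estimate ± SE. The SE was derived from the test, as the absolute log2 fold change divided by the square root of its F statistic. Fewer cells of a type and less RNA per cell cannot be told apart in bulk libraries of this kind.

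**Figure D2:**
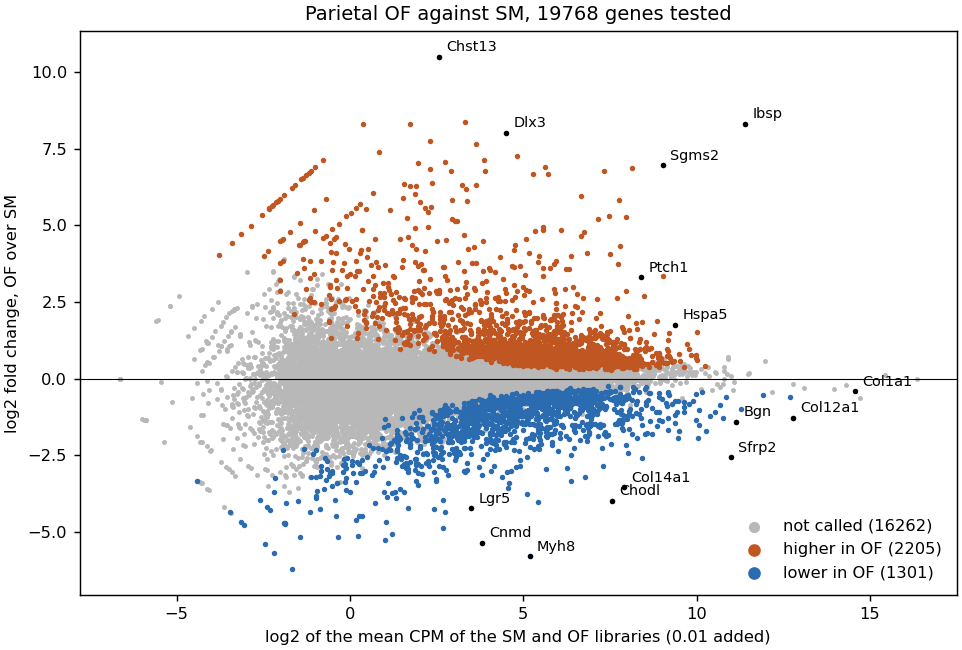
Log2 fold change (OF over SM) against the log2 mean CPM of the 10 libraries for the 19768 genes tested, with 15 genes of the text labelled and drawn in black; colors mark the 2205 genes higher and the 1301 genes lower in the OF. Ibsp is the labelled gene that is both abundant and changed by the largest factor, while Col1a1, the most abundant labelled gene, lies at -0.42 and did not pass the test.

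Bone matrix and mineralization genes were among the most different. Of 20 tested members of this list, 12 were higher in the OF and none was lower, with a median log2 fold change of 2.23 against -0.02 for all genes. Ibsp encodes bone sialoprotein, an acidic matrix protein that nucleates mineral. Its CPM was 41.97, 11.3, 9.48, 11.4 and 10.5 in SM replicates 1 to 5 and 5619.6, 8139, 4633, 4399.6 and 4124 in OF replicates 1 to 5. The regions did not overlap, SM replicate 1 was the highest of its region, and OF replicate 2 was the highest library of all. The log2 fold change was 8.31 ± 0.94 (adjusted p = 9.84e-12). Alpl, tissue-nonspecific alkaline phosphatase, which releases phosphate for mineral, had 14.2, 7.61, 6.32, 5.72 and 10.3 CPM in the SM libraries and 309, 412, 303, 355 and 371 CPM in the OF libraries. No library of one region reached the range of the other for Alpl, and the log2 fold change was 5.31 ± 0.36 (adjusted p = 9.37e-23). Smpd3, a neutral sphingomyelinase needed for mineralization, rose from 4.804 ± 3.22 to 563 ± 85.5 CPM. Ifitm5, an osteoblast membrane protein, rose from 3.26 ± 0.829 to 201 ± 17.8 CPM, although 29.7% of its exonic bases are shared with another gene model. Phex, a membrane endopeptidase of phosphate homeostasis, rose from 0.308 ± 0.1299 to 24.8 ± 8.42 CPM. Dmp1, an acidic protein of mineralizing matrix, was seen in 10 counts over the 5 SM libraries and 1274 over the 5 OF libraries (ratio of shares 115, exact 95% interval 62.1 to 239, for counting error only). Its OF values were spread widely, at 12.4, 37.9, 16.7, 5.12 and 2.14 CPM. Spp1, osteopontin, passed the test as well (2.14 ± 0.63, adjusted p = 0.00967), yet its OF values of 34.1, 91.8, 104, 44.8 and 17.2 CPM overlapped the SM range of 11.6 to 17.6 CPM. The call of Spp1 was lost with limma-voom, without replicate 2, without replicate 3 and within each litter. The 8 members that did not pass included Sparc (9620.2 ± 744 CPM in the SM, 7854 ± 638 in the OF), Mgp and Bglap, the latter under 1 CPM on average in both regions. Osteocyte and late osteoblast genes were higher for 5 of 8 tested (Dkk1, Phex, Dmp1, Mepe and Col24a1) and lower for none, while Sost had no count in any library.

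The promoter of Ibsp is shown because no other gene of this abundance changed as much, and because it carries the TATA box in inverted orientation, for which the gene is known. The RefSeq window (GRCm38.p6, + strand, chr5:104299037-104299286) covers the 250 bases before the transcription start, and capitals mark TTTATA, the reverse complement of TATAAA, 28 bases before the start. TATAAA occurred on either strand in 13.6% of the 32851 RefSeq promoter windows (250 bases before to 50 bases after each start).
Ibsp: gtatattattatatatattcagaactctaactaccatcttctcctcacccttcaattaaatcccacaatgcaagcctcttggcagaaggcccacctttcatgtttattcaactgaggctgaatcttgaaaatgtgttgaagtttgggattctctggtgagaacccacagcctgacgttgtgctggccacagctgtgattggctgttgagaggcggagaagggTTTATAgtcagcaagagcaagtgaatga

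Transcription factors of the osteoblast lineage followed the bone matrix genes. Of 15 tested, 12 were higher in the OF, 3 were lower and none was left uncalled (median log2 fold change 1.74). Dlx3, a homeobox factor, was close to 0 in the SM, at 0.193, 0.1902, 0, 0.0629 and 0.423 CPM in the SM libraries and 43.3, 44.4, 41.7, 50.4 and 46.2 CPM in the OF libraries. Sp7 (osterix), which is required for osteoblast formation, was at 23.3, 22.3, 19.8, 18.1 and 19.4 CPM in the SM libraries and 336, 359, 299, 363 and 372 CPM in the OF libraries. Neither gene overlapped between regions, and the log2 fold changes were 8.02 ± 0.76 for Dlx3 and 4.07 ± 0.32 for Sp7 (adjusted p = 6.42e-15 and 5.77e-19). Runx2, the factor that starts osteoblast commitment, was abundant in the SM already. It rose from 426 ± 24.4 to 715 ± 51.1 CPM, a log2 fold change of 0.75 ± 0.13 (adjusted p = 7.29e-06). Mef2c (3.74 ± 0.25), Runx3 (3.24 ± 0.30) and Runx1 (1.91 ± 0.18) rose by larger log2 fold changes than Runx2. The 3 members that fell were the homeobox genes Msx1 (-0.76 ± 0.27) and Msx2 (-1.69 ± 0.22) and the zinc finger homeobox gene Zfhx4 (-0.75 ± 0.15). Msx1 lay near the threshold, with an adjusted p of 0.0382 that rose to between 0.0535 and 0.140 in 9 of 10 fits that left out 1 library. Msx2, whose dosage is known to matter for suture closure, fell from 161 ± 20.3 to 49.8 ± 7.41 CPM (adjusted p = 8.65e-10).

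**Figure D3:**
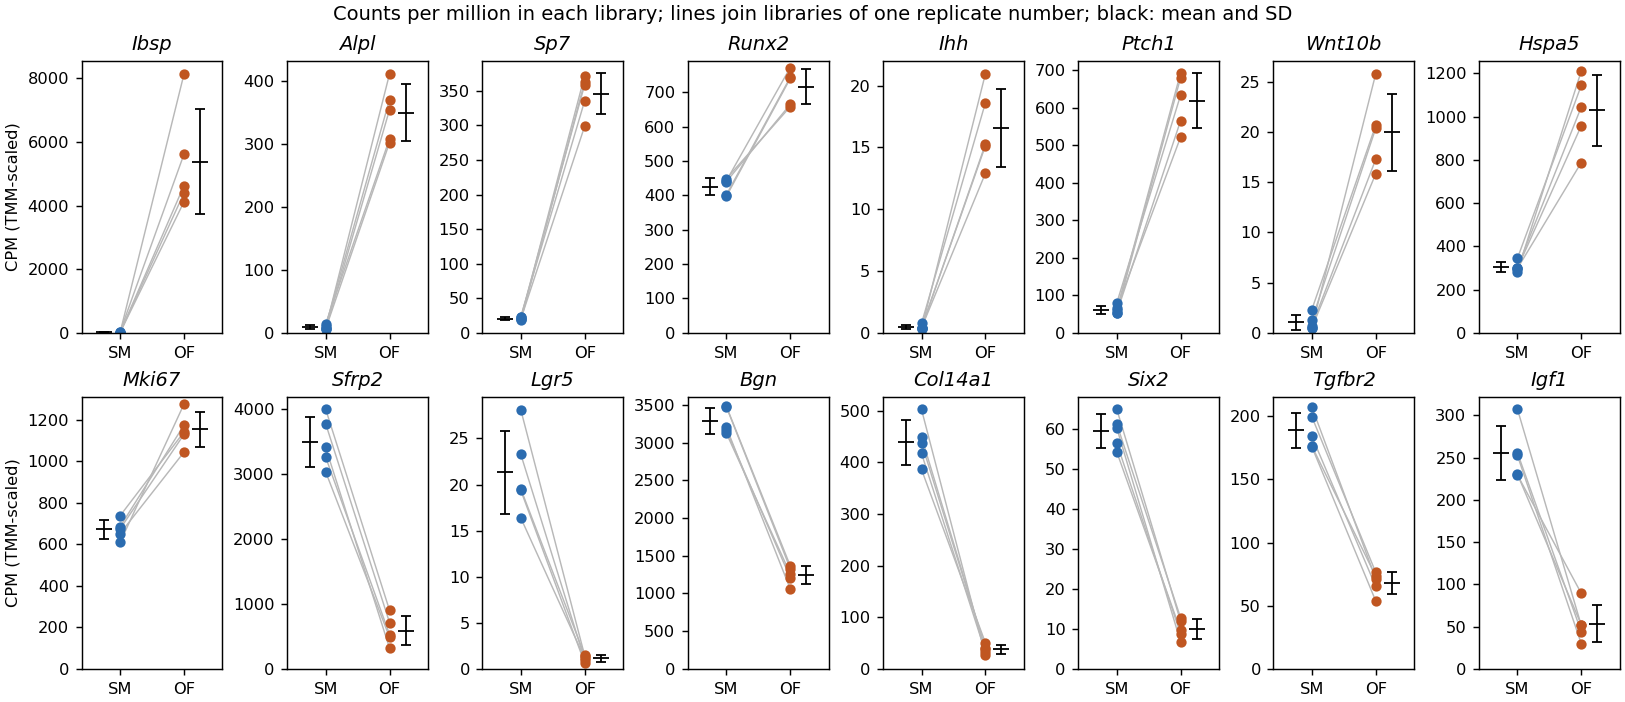
CPM of 16 genes in each of the 5 SM (blue) and 5 OF (orange) libraries on linear axes that start at 0; gray lines join libraries of one replicate number, and the black bar is the mean with the SD. For each of the 16 genes all OF libraries lie on one side of all SM libraries. The same held for 3667 (OF above) and 2889 (OF below) of the 19768 genes tested.

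The 15 largest rises were taken from called genes that reached 5 CPM in the OF. Besides Ibsp, Dlx3 and Smpd3 they held genes that were almost silent in the SM. Chst13, a chondroitin sulfotransferase, had no count in any SM library and 1037 counts over the 5 OF libraries, which made it at least 311-fold higher in the OF (against a floor of 3 counts over the 5 SM libraries). Lipi, a membrane-associated phospholipase, had 4 counts in the SM and 1723 in the OF (ratio 387, exact 95% interval 151 to 1423, counting error only). Lpar3, a lysophosphatidic acid receptor, had 3 and 871 counts (ratio 261, interval 89.0 to 1268). These low-count genes were seen in all 5 OF libraries. Sgms2, a plasma membrane sphingomyelin synthase, was second to Ibsp in OF level among these 15 genes, at 13.1, 6.66, 6.78, 5.54 and 9.16 CPM in the SM and 964, 1325, 865, 981 and 1024 CPM in the OF. Sgms2 and Smpd3 thus rose together (6.97 ± 0.53 and 6.87 ± 0.67), one enzyme making sphingomyelin and the other cleaving it. Transport was represented by Slc13a5, the sodium-citrate cotransporter (2.902 ± 1.598 to 321 ± 71.97 CPM), and Slc36a2, a proton-coupled amino acid transporter (7.08 ± 0.81). Col22a1, a collagen of tissue junctions, rose from 0.814 ± 0.671 to 98.3 ± 17.2 CPM, and Car3, a carbonic anhydrase, from 0.3697 ± 0.277 to 56.7 ± 10.2 CPM. Vit (vitrin), Wnt10a, Rhbdl2 and the noncoding Svet1 completed the group, each with a log2 fold change of at least 6.85.

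SM replicate 1 differed slightly from the other SM libraries in genes of this kind. Over 53 genes at least 8-fold higher in the OF (at least 20 CPM there and 1 CPM in the SM), its level was a median of 1.26 times the SM median, and it was the highest SM library for 24 of the 53. Without SM replicate 1, 1886 genes were higher and 1117 lower in the OF, and Ibsp had a log2 fold change of 8.97. Over 15 genes at least 8-fold lower in the OF (with the same minimum levels), OF replicate 2 was at a median of 0.778 times the OF median and was the lowest OF library for 10 of the 15.

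Chaperones of the endoplasmic reticulum were among the genes higher in the OF. Hspa5 (BiP), the main chaperone of the endoplasmic reticulum, was at 297, 344, 299, 301 and 283 CPM in the SM libraries and 788, 1144, 958, 1044 and 1211 CPM in the OF libraries. Hsp90b1 (GRP94) was at 509, 613, 529, 537 and 483 and 1302, 1726, 1369, 1538 and 1655 CPM. The lowest OF library exceeded the highest SM library by more than 2-fold for both, and the log2 fold changes were 1.75 ± 0.18 and 1.51 ± 0.16 (adjusted p = 1.92e-13 and 8.06e-13). For Hsp90b1, 10.3% of exonic bases are shared with another gene model. P4hb, the shared subunit of collagen prolyl 4-hydroxylase and a protein disulfide isomerase, rose from 534 ± 27.1 to 1170.1 ± 52.2 CPM. Of 28 tested genes of collagen processing and secretion, 14 were higher and 7 lower (median 0.38). All 7 tested chaperone and secretion genes of that list were higher, among them Serpinh1 (HSP47, 0.78 ± 0.21) and Fkbp11 (1.35 ± 0.22). Prolyl and lysyl hydroxylases gave 5 higher and 2 lower genes of 10 tested (median 0.27). The prolyl 4-hydroxylases P4ha1 (1.62 ± 0.18) and P4ha2 (1.67 ± 0.21) rose while P4ha3 fell (-1.36 ± 0.24). Among crosslinking enzymes, Loxl4 rose from 2.73 ± 2.41 to 64.8 ± 8.25 CPM and Lox and Loxl3 fell (-0.47 ± 0.17 and -2.01 ± 0.34). The call of Lox was lost in 7 of 10 fits that left out 1 library (adjusted p up to 0.0986).

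Promoters of the 2 chaperones are shown because they hold the endoplasmic reticulum stress element, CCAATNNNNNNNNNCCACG, a known binding site of the unfolded protein response. The element was searched on both strands and was found in 39 of the 32851 windows (0.119%). Of genes with it, 19 were tested, of which 8 were higher in the OF (Calr, Canx, Creld2, Dnajc3, Hnrnpa3, Hsp90b1, Hspa5 and Pdia6) and 2 were lower (Spats2l and Zfp57). Of the 11938 tested genes with a promoter window, 13.5% were higher and 7.3% lower. Hspa5 and Hsp90b1, which prompted the search, were named for their level and change, and the 8 others after their values were seen, so that nothing is read from these counts. A match is a description of the letters only. In the lines below, the 250 bases before each start are given, with the element's fixed letters in capitals (ATTGG and CGTGG where it lies on the other strand). The windows are chr2:34771840-34772089 (+ strand) for Hspa5 and chr10:86705445-86705694 (- strand) for Hsp90b1, both GRCm38.p6.
Hspa5: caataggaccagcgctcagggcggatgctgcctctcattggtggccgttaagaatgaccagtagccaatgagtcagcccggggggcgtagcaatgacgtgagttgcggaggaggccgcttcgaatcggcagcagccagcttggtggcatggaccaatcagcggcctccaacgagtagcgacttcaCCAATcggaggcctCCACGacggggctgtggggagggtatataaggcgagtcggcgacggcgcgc
Hsp90b1: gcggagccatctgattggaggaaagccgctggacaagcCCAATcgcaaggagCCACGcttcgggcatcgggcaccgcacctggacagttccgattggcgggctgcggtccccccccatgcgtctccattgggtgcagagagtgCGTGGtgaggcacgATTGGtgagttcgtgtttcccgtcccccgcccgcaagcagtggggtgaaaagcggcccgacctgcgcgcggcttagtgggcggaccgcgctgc
The element begins 65 bases before the Hspa5 start, and 212 and 107 bases before the Hsp90b1 start.

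Collagens of the SM made up another group. Of 34 collagen genes tested, 5 were higher in the OF and 14 lower (median -0.61). Col1a1, the main collagen of bone and of fibrous tissue, did not pass the test, at 27866 ± 1286 CPM in the SM and 20862 ± 1799.5 CPM in the OF (-0.42 ± 0.18, adjusted p = 0.107). Its SM libraries nevertheless all stood above its OF libraries. Col1a1 was called lower in the OF with DESeq2, with another scaling (median-ratio size factors) and in the fits to the 10 libraries alone. The 5 collagens that rose were Col22a1, Col11a2 (7.68 ± 1.48 to 194 ± 50.9 CPM), Col24a1 (95.8 ± 10.9 to 621 ± 113 CPM), Col13a1 and Col26a1. The call of Col13a1 was lost with limma-voom, without replicate 1 and with replicates 3 to 5 alone (log2 fold change 0.78, adjusted p = 0.471), and that of Col26a1 with replicates 1 and 2 alone. Col12a1, a collagen of the fibril surface, was the most abundant gene that was lower in the OF by at least 2-fold, at 8919.7, 10205, 10500.0, 11443 and 9050.1 CPM in the SM libraries and 3887, 4071, 4202, 4291 and 4257 CPM in the OF libraries. Col14a1, a related collagen, was at 438, 503, 386, 449 and 418 and 39.5, 26.8, 50.6, 39.6 and 32.7 CPM. Both were separated between regions without overlap (-1.28 ± 0.13 and -3.53 ± 0.52, adjusted p = 1.03e-13 and 4.78e-08). Collagen III (Col3a1, -0.98 ± 0.14), collagen VI (Col6a1, -1.10 ± 0.15) and basement membrane collagen IV (Col4a1, -1.47 ± 0.18; Col4a2, -1.84 ± 0.20) fell too.

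Small leucine-rich proteoglycans, which bind collagen fibrils, were mostly lower in the OF, 9 of 13 against 1 that was higher (median -1.09). Bgn (biglycan) was at 3481, 3202, 3125, 3475 and 3165 CPM in the SM libraries and 1367, 1061, 1262, 1331 and 1209 CPM in the OF libraries, with no overlap (-1.40 ± 0.18, adjusted p = 6.66e-10). Dcn (decorin) fell from 590.0 ± 34.5 to 98.8 ± 23.1 CPM and Fmod (fibromodulin) from 409 ± 36.5 to 91.4 ± 11.6 CPM. The exception was Omd (osteomodulin), a proteoglycan of mineralized tissue, which rose from 2.42 ± 0.707 to 29.8 ± 4.47 CPM. Of 12 elastic fiber genes, 8 were lower and none was higher (median -1.30), for example Eln (-1.45 ± 0.20) and Fbln5 (-1.94 ± 0.28). Of 16 tendon-like and matricellular genes, 9 were lower and none was higher (median -1.17). They included Scx, the tendon transcription factor, which fell from 12.9 ± 2.603 to 1.45 ± 0.613 CPM, Tnmd (-1.60 ± 0.34), Postn (-1.45 ± 0.19) and Thbs2 (2488 ± 207 to 1013 ± 133 CPM). Metalloproteinases and their inhibitors gave 4 lower genes (Mmp2, Mmp14, Mmp16 and Timp2) and 1 higher gene (Timp1, 1.55 ± 0.27) of 13 tested. Fstl1, a secreted glycoprotein, fell from 2008 ± 89.05 to 950.4 ± 118 CPM.

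The largest falls, taken from genes that reached 5 CPM in the SM, were of several kinds. Cnmd (chondromodulin, an angiogenesis inhibitor of cartilage) was at 19.1, 37.2, 20.8, 30.6 and 29.02 CPM in the SM libraries and 0.0597, 0.177, 1.37, 0.528 and 1.16 CPM in the OF libraries. Lgr5, an R-spondin receptor, was at 28.1, 19.5, 16.4, 23.3 and 19.4 and 1.43, 1.48, 1.14, 1.003 and 0.636 CPM. For both genes every OF library lay below every SM library (-5.35 ± 0.86 and -4.22 ± 0.64, adjusted p = 5.11e-07 and 1.05e-07). Pax9, a paired-box patterning factor, fell from 12.4 ± 2.504 to 0.413 ± 0.193 CPM, and Chodl (chondrolectin) from 353 ± 45.9 to 22.4 ± 9.98 CPM. Epyc (epiphycan) fell from 12.9 ± 4.198 to 0.625 ± 0.419 CPM, but 40.6% of its exonic bases lie antisense to another gene model and counting did not use strand. The group also held Gria1, a glutamate receptor subunit (-3.56 ± 0.69), Clstn2 (-3.77 ± 0.65), Slc4a10 (-3.96 ± 0.97) and the large lipoprotein receptor gene Lrp1b (-4.01 ± 0.68). Adamtsl3, Slc16a14, Rbpjl and Mybpc1, a myosin-binding protein of skeletal muscle, had log2 fold changes between -3.34 and -3.70. Myh8, the perinatal myosin heavy chain of skeletal muscle, fell by the largest factor of these, from 71.6 ± 4.44 to 1.29 ± 0.639 CPM (adjusted p = 1.55e-10). The 5 other skeletal muscle markers that were tested did not pass the test, and Myod1 had no count in any library.

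Hedgehog genes differed in both directions. Ihh, the hedgehog ligand of bone, was at 0.385, 0.761, 0.402, 0.315 and 0.423 CPM in the SM libraries and 15.3, 18.6, 12.9, 20.96 and 15.1 CPM in the OF libraries. Ptch1, a receptor and a known target of the pathway, was at 65.8, 78.6, 52.9, 60.5 and 52.9 CPM and 522, 634, 565, 693 and 679.9 CPM. Both were separated without overlap (5.16 ± 0.70 and 3.32 ± 0.23, adjusted p = 5.29e-09 and 1.54e-21). The target and effector Gli1 (13.7 ± 3.46 to 104 ± 8.58 CPM) and the ligand-binding inhibitor Hhip (4.52 ± 3.03 to 130.5 ± 14.7 CPM) rose too. The co-receptors Cdon (349 ± 17.6 to 114 ± 11.4 CPM), Boc (-1.12 ± 0.21) and Gas1 (-0.97 ± 0.25) and the repressor Gli3 (-0.35 ± 0.12) fell. Smo, Sufu, Disp1, Hhat and Gli2 did not pass the test. The call of Gli3 was lost in 9 of 10 fits that left out 1 library (adjusted p up to 0.122). Shh had 5 counts over all SM libraries and none in the OF.

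Of 18 FGF pathway genes tested, 5 were higher and 3 lower in the OF. The ligands Fgf10 (-2.55 ± 0.63), Fgf18 (-1.52 ± 0.49) and Fgf2 (-0.72 ± 0.19) fell and none of the 6 tested rose. The receptors Fgfr3 (1.56 ± 0.26), Fgfr2 (1.00 ± 0.14) and Fgfr1 (0.41 ± 0.14) and the feedback inhibitors Spry2 and Spry4 rose. The receptors Fgfrl1 (-0.64 ± 0.31) and Fgfr4 (-0.95 ± 0.99) did not pass the test. Leaving out 1 library ended the calls of Fgfr1, Fgf18 and Spry2 in 5, 4 and 2 of 10 fits (adjusted p up to 0.0690, 0.0610 and 0.0785). For Fgfr3, 13.9% of exonic bases lie antisense to another gene model. Of 26 BMP genes tested, 6 were higher and 1 lower. Bmp2 (7.46 ± 1.72 to 44.1 ± 5.096 CPM) and Bmp3 (2.06 ± 0.34) rose among the ligands, Bmper (5.17 ± 2.503 to 82.9 ± 3.46 CPM) and Chrdl1 among the secreted regulators, and Id1 and Id3 among the targets. Bmp5 fell (-3.61 ± 0.51), with 46.7% of its exonic bases antisense to another gene model, and Bmp4 was at 62.2 ± 8.84 CPM in the SM and 61.97 ± 8.48 CPM in the OF.

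TGF-beta genes were lower in the OF for 7 of 15 tested and higher for 3 (median -0.82). Tgfbr2, the type II receptor, was at 184, 176, 199.6, 207 and 176 CPM in the SM libraries and 65.3, 53.8, 76.5, 71.5 and 73.4 CPM in the OF libraries. All OF libraries lay below the SM range (-1.47 ± 0.15, adjusted p = 6.95e-14). The accessory receptor Tgfbr3 (-1.09 ± 0.23), the ligand Tgfb2 (-1.19 ± 0.21) and the latency proteins Ltbp1, Ltbp2 and Ltbp3 fell, while the ligand Tgfb1 rose from 3.83 ± 1.06 to 20.6 ± 5.02 CPM. Of 33 WNT genes tested, 9 were higher and 7 lower. The ligands Wnt10b (1.06 ± 0.765 to 19.97 ± 3.83 CPM) and Wnt7b (3.53 ± 0.70) rose and Wnt11 fell (-2.03 ± 0.51). The ligand Wnt10a, one of the 15 largest rises (7.02 ± 0.89), was not on that list. Among the R-spondins, Rspo1 rose (0.99 ± 0.32) and Rspo3 fell (-2.22 ± 0.46). The WNT effectors Tcf7 (7.501 ± 3.29 to 278 ± 33.1 CPM) and Lef1 (1.08 ± 0.31) rose, as did the antagonists Dkk1 (2.98 ± 0.893 to 92.3 ± 12.6 CPM), Wif1, Sfrp1 and Frzb. The call of Frzb was lost with limma-voom and within each litter, and that of Rspo1 without replicate 2, without replicate 5 and within each litter. The antagonist Dkk3 fell (-1.24 ± 0.15). Sfrp2, an antagonist as well, was the second most abundant gene lower in the OF by at least 2-fold, at 3259.6, 3408, 3998, 3774 and 3034 CPM in the SM libraries and 529.8, 321, 903, 714 and 488 CPM in the OF libraries. These ranges did not overlap (-2.56 ± 0.28, adjusted p = 2.6e-12), with 16.1% of the exonic bases antisense to another gene model. Axin2, a common WNT target, was not called (-0.25 ± 0.27, adjusted p = 0.626), and its highest value, 82.7 CPM, was in SM replicate 4 with all others between 24.3 and 39.6 CPM.

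**Figure D4:**
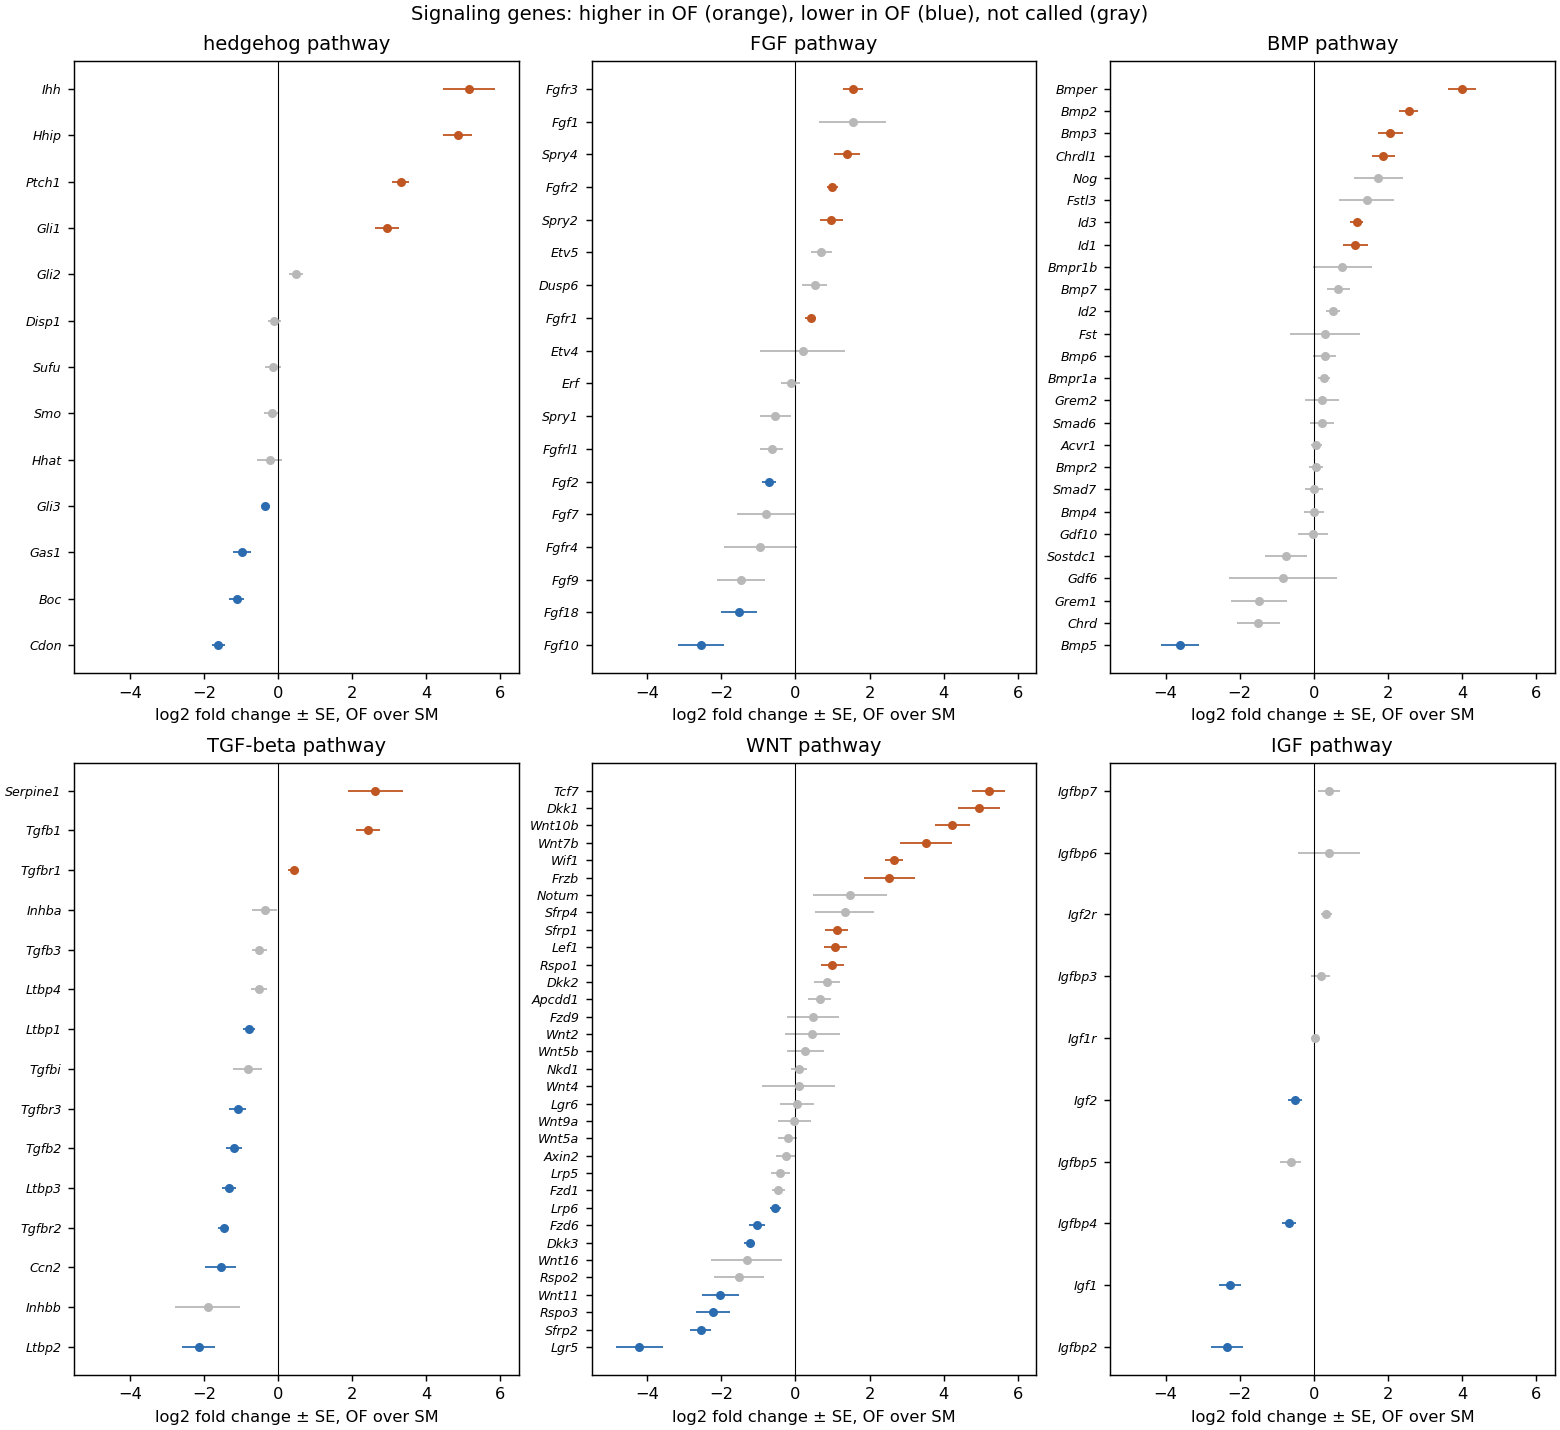
Log2 fold change (OF over SM) ± SE of tested genes of 6 signaling lists, ordered within each list; orange is higher in the OF, blue is lower and gray did not pass the test. Hedgehog and WNT genes lie on both sides of 0, 7 of 15 TGF-beta genes lie below it as called genes, and no IGF gene was called higher.

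IGF signaling genes gave 4 lower and no higher members of 10 tested. The growth factor Igf1 was at 256, 253, 229.7, 231 and 308 CPM in the SM libraries and 44.2, 29.96, 89.5, 52.4 and 51.7 CPM in the OF libraries, with no overlap (-2.25 ± 0.30, adjusted p = 1.84e-09). The binding protein Igfbp2 fell from 107 ± 11.7 to 21.1 ± 8.34 CPM, and Igf2 and Igfbp4 fell by less (Igf2 shares 62.8% of its exonic bases with another gene model, and its call was lost in 7 of 10 fits that left out 1 library, with an adjusted p of up to 0.209). Ephrins and Eph receptors, which act at cell boundaries, were lower for 7 of 14 and higher for 1 (median -0.80). Epha7 (-1.73 ± 0.26), Epha3 (-1.14 ± 0.18) and Efnb2 (-0.90 ± 0.23) fell, and Epha4 rose (1.15 ± 0.21). In the NOTCH list 1 of 12 rose (Hes1, 1.92 ± 0.26) and 1 fell (Notch2, -0.67 ± 0.16). In the retinoic acid list 2 of 13 fell, Aldh1a1 (-3.34 ± 0.81) and Dhrs3 (-0.98 ± 0.36), and none rose. Dhrs3 was not called with a replicate block (adjusted p = 0.0571), nor in any of 10 fits that left out 1 library (adjusted p up to 0.107).

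Transcription factors that pattern the skull were mostly higher in the SM. Of 29 tested, 15 were lower in the OF and 2 were higher (median -0.89). Six2, a marker of skeletal progenitors, was at 65.1, 60.4, 54.4, 56.6 and 61.4 CPM in the SM libraries and 11.99, 6.796, 9.65, 8.82 and 12.8 CPM in the OF libraries, with no overlap (-2.57 ± 0.28, adjusted p = 1.28e-12). Zic1 (322 ± 20.9 to 118 ± 13.7 CPM) and Zic4 (-1.62 ± 0.37), Foxc1 (-1.43 ± 0.28), Alx1 (-1.18 ± 0.28), En1 (-0.89 ± 0.29), Prrx1 (-0.82 ± 0.11) and Twist1 (-0.71 ± 0.18) fell. Prrx2 (0.93 ± 0.21) and Twist2 (1.57 ± 0.58) rose, Twist2 with 46.5% of its exonic bases antisense to another gene model. The calls of Twist2 and En1 were lost in 9 and 3 of 10 fits that left out 1 library (adjusted p up to 0.114 and 0.102). Suture mesenchyme genes that the study derived from coronal single-cell data gave 4 lower genes of 11 (Cd34, Angptl2, Mest and Ets2) and 1 higher gene, Hhip. The call of Ets2 was lost in 3 of 10 fits that left out 1 library (adjusted p up to 0.0609). The study had these bulk data in hand when it singled out genes of that list, so that its counts are not independent evidence of a direction. Of 9 markers of postnatal suture stem cells, Six2 and Prrx1 fell, while Gli1 and Lepr rose, Lepr from 12.3 ± 4.46 to 149 ± 23.3 CPM. Of 29 tested genes whose alteration causes craniosynostosis in mice, 7 were higher (Alpl, Ptch1, Fgfr3, Epha4, Fgfr2, Runx2 and Fgfr1) and 5 lower (Msx2, Lmx1b, Il11ra1, Twist1 and Gli3).

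Cell cycle genes were higher in the OF for 26 of 28 tested and lower for none (median 0.86). Mki67, a marker of cycling cells, was at 738, 675, 652, 686 and 610.1 CPM in the SM libraries and 1142, 1130.4, 1045, 1175 and 1276 CPM in the OF libraries. The ranges did not overlap, and the log2 fold change was 0.78 ± 0.21 (adjusted p = 0.00445). Log2 fold changes of the 26 ran from 0.50 for Mcm6, a subunit of the replication helicase, to 1.43 for Rrm2, the ribonucleotide reductase subunit. Mcm6 was not called without SM replicate 1 or OF replicate 5 (adjusted p up to 0.0516). Of 15 tested genes of glycolysis and the hypoxia response, 9 were higher and none lower (median 1.00). The rises were in glycolytic enzymes, among them Ldha, lactate dehydrogenase (308 ± 24.3 to 871 ± 127 CPM), Pgk1 (19.4 ± 4.29 to 77.05 ± 11.5 CPM) and Hk2 (1.41 ± 0.22), and in the stress gene Ddit4. Ddit4 was not called without OF replicate 1, SM replicate 2 or SM replicate 4 (adjusted p up to 0.129). The 6 members of the list that did not pass the test included Vegfa (-0.21 ± 0.16), Car9 (-1.10 ± 0.59) and Egln3 (0.17 ± 0.31).

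Marker genes of cell types were used to check the labels. Osteoblast markers were higher in the OF for 7 of 10, and Ibsp, Phex and Ifitm5 were at 16.9 ± 14.01, 0.308 ± 0.1299 and 3.26 ± 0.829 CPM in the SM. The summed level of the 10 overlapped, at 26840 to 30270 CPM in the SM and 24180 to 33310 CPM in the OF, and most of it was Col1a1, which was not called. Chondrocyte markers were lower in the OF for 6 of 11 tested, including Col2a1 (150.5 ± 38.8 to 14.9 ± 6.03 CPM) and Acan (159.6 ± 16.1 to 39.9 ± 2.67 CPM), and higher for 1, Col11a2. Their summed level ran from 386 to 580 CPM in the SM libraries and from 266 to 384 CPM in the OF libraries, with no overlap. Markers of skeletal muscle summed to 71.4 to 81.5 CPM in the SM and to 3.49 to 6.80 CPM in the OF, through Myh8. Dura and arachnoid markers summed to 106 to 135 CPM in the SM and 49.8 to 100.1 CPM in the OF, with 1 of 12 lower (Matn4, -3.02 ± 0.67). Dermal markers summed to 744 to 813 CPM and 417 to 537 CPM, with Lum the 1 called gene of 8. Erythroid markers summed to 497 to 749 CPM in the SM and 170 to 603 CPM in the OF with none of 7 called. Pericyte and smooth muscle markers gave 4 lower and 1 higher of 10, brain markers 1 lower (Stmn2) and 1 higher (Tubb3) of 10, macrophage markers 1 lower of 11 (Lyz2) and endothelial markers 1 lower of 10 (Pecam1). Brain markers summed to 85.2 to 110.2 CPM in the SM and 69.6 to 82.6 CPM in the OF, with no overlap. The calls of Pecam1 and Lyz2 were lost in 5 and 3 of 10 fits that left out 1 library (adjusted p up to 0.126 and 0.0721). None was called among 5 osteoclast, 6 mast cell, 3 epidermal, 4 peripheral nerve and 3 adipocyte markers, and the 7 neutrophil markers were all too low to test. Osteoclast markers nevertheless summed to 100 to 111.5 CPM in the SM and 77.29 to 94.18 CPM in the OF, with no overlap. Peripheral nerve markers summed to 7.572 to 11.79 CPM and 5.838 to 6.916 CPM, also without overlap. Of the 8 suture mesenchyme markers, 4 were lower in the OF (Six2, Cd34, Angptl2 and Twist1) and Hhip was higher. The part of cartilage, dura, dermis, brain, nerve, osteoclast and blood RNA in the genes higher in the SM was not tested.

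The 3 further comparisons asked whether OF and SM differed alike in related captures, each as a test of the difference between the 2 fold changes. They share the sagittal E16.5 libraries, so that their results are not independent of each other. None of the 3 compared groups shared a litter label with the sagittal E16.5 libraries, and stage or suture and litter label cannot be told apart. Depth and mitochondrial share were unlike too. Lambdoid SM and parietal OF libraries held 8098490 to 11294521 counts. The mitochondrial share was 19.55 to 26.22% in the frontal OF against 14.34 to 17.2% in the sagittal E16.5 OF. In the sagittal suture at E18.5 it was 16.21 to 22.13% in the SM and 14.33 to 19.17% in the OF. The part of these in the differences was not tested. Against the sagittal suture at E18.5, 6 of 19768 genes differed (0.0304%), and 682 had an unadjusted p under 0.05. With a replicate block 23 genes differed at E18.5, and without OF replicate 3 none did (561 at an unadjusted p under 0.05). Against the frontal suture at E16.5, 61 differed (0.309%), with 812 at an unadjusted p under 0.05. Against the parietal OF of the lambdoid suture at E16.5, 100 differed (0.506%), with 1050 at an unadjusted p under 0.05. Where no gene differs, a share of about 0.05 of all tests has an unadjusted p under 0.05. The counts at an unadjusted p therefore do not show further differences.

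At E18.5 the leptin receptor gene Lepr had a log2 fold change of 1.70 ± 0.29 against 3.59 ± 0.31 at E16.5, from a mean of 28.6 CPM in the SM and 92.8 CPM in the OF (difference 1.89 ± 0.40, adjusted p = 0.0394). Epha4 was higher in the OF at E16.5 and not called at E18.5 (-0.40 ± 0.21, difference 1.56 ± 0.30, adjusted p = 0.0165). Col4a1 was lower in the OF at E16.5 and not called at E18.5 (-0.18 ± 0.18, difference -1.29 ± 0.25, adjusted p = 0.0165). Aplnr, the apelin receptor of vessels, turned from -1.62 ± 0.41 at E16.5 to 1.01 ± 0.38 at E18.5 (difference -2.63 ± 0.56, adjusted p = 0.0394). The fold change at E18.5 was 1.65 ± 0.17 for Anxa2 (difference -1.19 ± 0.24, adjusted p = 0.0165) and 2.81 ± 0.27 for Rerg (difference -1.68 ± 0.36, adjusted p = 0.0402). With the E18.5 libraries of a single litter label (replicates 4 and 5), Rerg was the 1 gene of the 6 that was still called, and the difference for Lepr was 0.80. Over 23 alternatives, the difference lost its call in 14 each for Lepr and Aplnr, 12 for Rerg, 7 for Col4a1 and 5 each for Epha4 and Anxa2. For Lepr, Aplnr and Rerg these included limma-voom. The E16.5 call of Anxa2 itself was lost in 5 of 10 fits that left out 1 library (adjusted p up to 0.116).

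Compared with the frontal suture, Cthrc1, a secreted collagen triple helix protein, was lower in the sagittal OF (-1.14 ± 0.14) and not in the frontal OF (0.20 ± 0.14, difference -1.34 ± 0.19, adjusted p = 9.73e-06). Serpine2, a protease inhibitor, went in opposite directions (-0.91 ± 0.26 sagittal, 1.29 ± 0.27 frontal). Bmp5 was lower in the sagittal OF and at 0.38 ± 0.43 in the frontal suture (difference -4.00 ± 0.66, adjusted p = 0.000238). Spon1 rose by more at the frontal front (2.73 ± 0.19). Lgi2 had a log2 fold change of 2.59 ± 0.25 at the sagittal front and 0.69 ± 0.23 at the frontal front (difference 1.90 ± 0.33, adjusted p = 0.000583). Capn6 was not called in the sagittal suture (-0.45 ± 0.19, called with a replicate block at an adjusted p of 0.0147) and rose in the frontal suture (1.02 ± 0.19). Six2 fell by less in the frontal suture (-0.88 ± 0.26, difference -1.70 ± 0.37, adjusted p = 0.0101, not called without replicate 2).

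Compared with the lambdoid suture, the hedgehog genes Hhip, Gli1 and Ptch1 differed more between sagittal regions. Hhip had a log2 fold change of 4.85 ± 0.40 in the sagittal and 1.70 ± 0.34 in the lambdoid suture (difference 3.15 ± 0.50, adjusted p = 2.27e-05). Its mean OF level was 130.5 and 130.5 CPM, and its mean SM level was 4.52 and 40.3 CPM, in the same order. Gli1 (2.94 ± 0.32 against 0.85 ± 0.30) and Ptch1 (3.32 ± 0.23 against 2.00 ± 0.22) differed in the same direction (adjusted p = 0.00366 and 0.0122). Ihh was not shown to differ (4.08 ± 0.66 in the lambdoid suture, difference 1.08 ± 0.89, adjusted p = 1). Lepr rose in the sagittal OF and was not called in the lambdoid suture (0.46 ± 0.28, difference 3.13 ± 0.41, adjusted p = 3.93e-07). Col11a1, a fibril-forming collagen, and Aplnr fell in the sagittal OF (-1.23 ± 0.20 and -1.62 ± 0.41) and rose in the lambdoid OF (0.79 ± 0.20 and 2.74 ± 0.42). With limma-voom neither the sagittal fall of Aplnr nor its difference from the lambdoid suture was called. Thy1, a surface glycoprotein, and the guanine exchange factor Tiam1 did the opposite (2.25 ± 0.38 and 1.58 ± 0.22 sagittal, -1.27 ± 0.36 and -0.56 ± 0.21 lambdoid). Ptprb, an endothelial phosphatase, fell in the sagittal OF (-2.34 ± 0.28) and was not called in the lambdoid suture (0.33 ± 0.27).

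**Figure D5:**
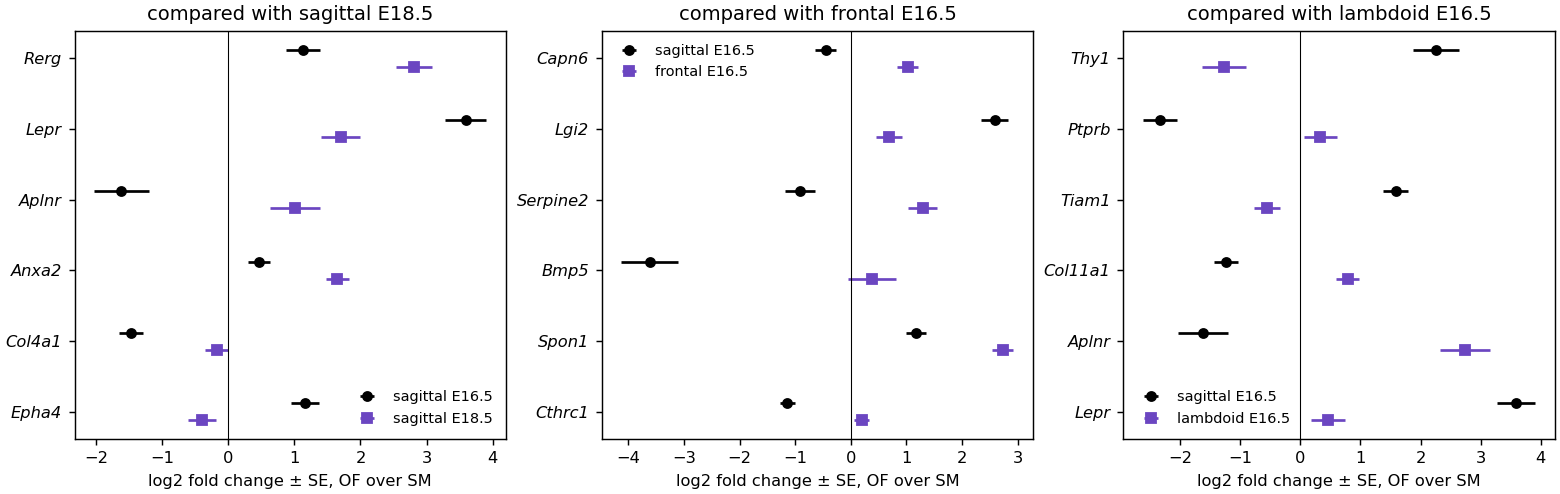
Log2 fold change (OF over SM) ± SE of the 6 genes with the smallest adjusted p in each test of a difference, in the sagittal suture at E16.5 (black circles) and in the compared group (purple squares). Aplnr lies on the lower side of 0 in the sagittal suture at E16.5 and on the higher side at E18.5 and in the lambdoid suture, and limma-voom called neither difference.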

How the data were processed

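RNA of laser-captured SM and parietal OF of the sagittal suture at E16.5 was measured by RNA-seq in 5 libraries each. Read pair counts per gene were deposited by the authors, who amplified RNA (Ovation RNA-Seq V2), prepared Nextera XT libraries, trimmed reads with cutadapt, aligned them with STAR 2.5.3a and counted exonic pairs without strand with featureCounts 1.6.4 (mm10, GENCODE vM22). The amplification has no molecular identifiers, so that intervals cover counting error only. Exonic bases shared with another gene model are not given above for every named gene that has them. The share was 23.1% for Mest, 19.9% for Gas1, 13.7% for Lef1, 13.1% for Rspo3 and 11.6% for Loxl3, all antisense. It was 18.8% for Spp1, on the same strand. A table of the authors' log2 ratios between groups was not used. Gene types and shares of exonic bases came from GENCODE vM21, an earlier release than that of the counts. Per-sample columns of other series numbered 0.

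Only genes that reached 1 CPM in more than 10% of the 100 libraries of the 20 groups with 5 replicates were kept, scaled by TMM and fitted together with edgeR's quasi-likelihood test (edgeR 4.0.16, R 4.3.3). The groups share 1 estimate of the spread. Adjusted p are Benjamini-Hochberg values over all genes tested, with a threshold of 0.05. DESeq2 1.42.0 and limma-voom (limma 3.58.1) were alternatives. Libraries were compared by exact permutation tests that did not use the pairing of replicates. Scripts were tested on simulated data.

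Replicate numbers pair libraries through a shared specimen label. Residuals of same-numbered libraries correlated at 0.030 to 0.091 (none over 0.1), and each library matched its own number best in 5 of 5 pairs. A litter label (the litter id without its last number) is taken as a litter, although the labels do not explain its parts. The replicates are the 5 specimens, and p-values rest on the spread pooled over the 20 groups.

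Named genes were the 15 largest rises and falls among called genes that changed alike in 5 of 5 pairs and reached 5 CPM in the higher region, the 5 most abundant called genes in each direction with at least 2-fold change, the 6 genes of smallest adjusted p in each difference test, and members of the gene lists. The first 2 groups left out gene models without a common name, pseudogenes and hemoglobin or immunoglobulin genes, and the third needed 5 CPM in one of the 4 groups compared. Members and lists (24 function lists and 17 marker lists) were chosen with earlier results of these data known. Aldoa, a glycolysis list member, was left out because 2 gene models share its symbol, and some other list members are not reported here. Promoter windows came from RefSeq (GRCm38.p6), and 24 of 38 named genes matched one.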

Additional observations from a re-analysis of the deposited data

Results flagged for a closer look

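A library stood apart from the 4 others of its region (Dixon's test) for 24 of 410 groups of 5 values examined, where chance alone marks about 1 in 20. The share flagged was close to that of chance, so that the flagged values are listed as a description only. SM replicate 1 was the highest SM library for 8 of these genes: Ibsp at 41.97 CPM, Smpd3 at 10.39, Loxl4 at 6.994, Slc13a5 at 5.711, Spp1 at 17.65, En1 at 39.66, Igf2 at 346.8 and Zfp57 at 85.28 CPM. Of these, Ibsp, Smpd3, Loxl4, Slc13a5 and Spp1 were higher in the OF, and En1, Igf2 and Zfp57 were lower there. OF replicate 2 was the lowest OF library for Boc (28.66 CPM), Fgf2 (25 CPM) and Msx1 (22.16 CPM), which were all lower in the OF, and the highest for Lipi (26.95 CPM), which was higher there. The cause of these values was not tested.

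Axin2 reached 82.67 CPM in SM replicate 4 against 32.59 in the next SM library. Among the other SM libraries, replicate 3 was highest for Fgfr1 (184.5 CPM), replicate 2 for Ihh (0.7609 CPM), and replicate 5 held the 1 count each of Mepe and Svet1 (0.07043 CPM). OF replicate 3 was highest for Col2a1 (25.19 CPM) and Wnt11 (11.25 CPM), OF replicate 1 for Epyc (1.372 CPM) and Dhrs3 (6.623 CPM), and OF replicate 5 for Col26a1 (130.6 CPM), Hk2 (83.35 CPM) and Mcm6 (115.2 CPM).

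The contrast of OF and SM differed between the sagittal suture at E16.5 and another stage or suture for several named genes, by the test of the difference of log2 fold changes (sagittal E16.5 minus the other). From E18.5, Epha4 differed by 1.556 and Lepr by 1.893, while Aplnr (-2.631), Rerg (-1.681), Col4a1 (-1.292) and Anxa2 (-1.190) lay below. From the frontal suture, Vit (4.277), Alpl (1.915), Lgi2 (1.899), Sfrp1 (1.691), Col26a1 (1.550), Epha4 (1.336) and Pgk1 (1.207) lay above. Epyc (-4.653), Spp1 (-4.575), Bmp5 (-3.996), Serpine2 (-2.203), Six2 (-1.697), Fmod (-1.596), Spon1 (-1.553), Capn6 (-1.471), Cthrc1 (-1.339), Eln (-1.290) and Cd34 (-1.256) lay below it. From the lambdoid suture, Svet1 (6.362), Thy1 (3.526), Hhip (3.151), Lepr (3.128), Bmper (2.623), Lef1 (2.172), Tiam1 (2.141), Gli1 (2.084), Hes1 (1.631) and Ptch1 (1.318) lay above. Aplnr (-4.360), Ptprb (-2.670), Col11a1 (-2.022), Pecam1 (-1.932), Col4a2 (-1.558), Col4a1 (-1.536), Postn (-1.452), Col1a1 (-1.332), Sparc (-1.179), Lum (-0.9771) and Col12a1 (-0.8572) lay below it. Litter label and stage or suture cannot be told apart in these comparisons. Svet1 lost its call against the lambdoid suture in 10 of 22 alternatives. These included the replicate block, limma-voom and each fit without 1 of SM replicates 1 to 4. Against the frontal suture, Sfrp1, Cd34 and Pgk1 lost theirs in 14, 13 and 12 of 22 alternatives. Vit and Spp1 lost theirs with limma-voom only.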

How the results depend on the processing

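Over 26 alternatives, no called gene named in the text changed direction, and 121 of 186 named genes called in the comparison of OF and SM kept their call in each; 65 lost it in at least 1, mostly in the fits to 1 litter, and 9 of 17 uncalled genes gained one. The uncalled Axin2 turned from -0.2509 to between 0.161 and 0.3002 in 3 alternatives that left out SM replicate 4, and Bmp4, near 0, had the other sign in 12 (up to 0.07425). The replicate block gave 2277 higher and 1366 lower genes, with 3373 of the 3506 calls shared. Among named genes compared between OF and SM, it changed the calls of Dhrs3 and Capn6 alone. It also ended the call of the difference of Svet1 from the lambdoid suture. The counts of 3506 called genes (2205 higher, 1301 lower) became 8968 (4551 and 4417) with the 10 libraries alone and 9173 (4654 and 4519) with the 10 libraries and a replicate block, 3505 of the 3506 calls being shared with the 10 libraries alone. They became 1022 (656 and 366) with replicates 1 and 2 and 1733 (1129 and 604) with replicates 3 to 5. Calls lost within each litter are given in the Results for some genes only. Serpinh1, Sfrp1, Lef1, Id1 and Mepe were among the others that lost theirs in this way. Leaving out libraries or replicate numbers gave 2555 to 3354 (1694 to 2201 and 853 to 1185). Fewer lower genes, 853 and 861, were called without replicates 2 and 5.

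The difference from E18.5 (6 genes, 2 above and 4 below) rested on few libraries. It became 23 (8 and 15) with the replicate block, 20 (8 and 12) with DESeq2, 0 (0 and 0) by edgeR with total counts in place of TMM (619 at an unadjusted p under 0.05), and 1 (0 and 1) with E18.5 replicates 4 and 5 alone, while limma-voom called 5 above. Leaving out samples gave 0 to 6 (0 to 3 and 0 to 4), with 0 without replicate 3, without replicate 4 and without OF replicate 3. The difference from the frontal suture (61, 31 above and 30 below) became 97 with DESeq2 (55 above) and 38 with limma-voom (10 above), and was 33 to 60 (19 to 35 and 14 to 30) with samples left out, lowest without replicate 2. The difference from the lambdoid suture (100, 51 and 49) became 50 with limma-voom (30 and 20), had 92 above with DESeq2, and was split into 98 above and 23 below with total counts in place of TMM. With samples left out it was 61 to 95 (36 to 62 and 25 to 41), lowest without replicate 4. Of the 45 called differences of named genes, 22 (Hhip, Gli1 and Ptch1 against the lambdoid suture included) kept their call in each alternative, and the cause of the other changes was not tested.

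The difference in log2 total counts was 0.1113 to 0.2044 with replicates left out, and that in mitochondrial share 0.4625 to 0.690 percentage points. Other scalings moved the median log2 fold change of all genes from -0.017 to between -0.084 and -0.023. Genes with few counts, such as Chst13 and Lipi, have fold changes limited by depth.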

Other observations

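Myh8 was the skeletal muscle gene with the highest level in the SM (71.6 CPM), while Myod1 had no count in any library and Myog had 4 counts over the SM libraries. Of other myosin heavy chains, Myh1 fell from 3.90 to 0.0935 CPM and Myh3 was at 0.307 and 0.294 CPM. Tubb3, a neuronal tubulin, rose in the OF from 0.489 to 11.0 CPM while Stmn2, another neuronal gene, fell from 18.1 to 2.68 CPM. Of the collagen XI chains, Col11a2 rose and Col11a1 fell in the OF. These genes were singled out after their values were seen.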
